A study of Mus musculus with 7 samples.

Results

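The genes of 6 EGF family ligands (*Egf*, *Areg*, *Ereg*, *Tgfa*, *Btc* and *Hbegf*) and of the 4 ERBB receptors (*Egfr*, *Erbb2*, *Erbb3* and *Erbb4*) were followed in RNA-seq counts of mouse mammary gland at lactation day 1. These 10 genes were taken by symbol from the 37310 genes counted, whatever their values, and 8 of them were among the 17175 genes with enough counts to be tested (5 or more counts in 4 or more libraries). *Areg* and *Ereg* did not pass this filter and are given as counts. The labels give C57BL/6 mice and the genotypes WT (3 libraries) and Tardbp KO (4 libraries), and the study asked which genes act downstream of the RNA-binding protein TDP-43, encoded by *Tardbp*. By the study's methods, WT females were *Tardbp* wt/wt and KO females *Tardbp* flox/flox, and all of them carried the WAP-Cre transgene, so that the controls also express Cre. The promoter of the whey acidic protein gene drives Cre in luminal epithelial cells from mid-pregnancy on, and Cre removes exons 2 and 3 of *Tardbp*. RNA came from the whole gland, which also holds myoepithelium, fat, stroma, vessels and immune cells. In such bulk tissue, fewer cells of a type and less RNA per cell cannot be told apart.

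The EGF family ligands are made as membrane proteins, and proteases of the ADAM family cut them free. Epidermal growth factor, TGF-alpha and amphiregulin bind EGFR, and betacellulin and HB-EGF bind both EGFR and ERBB4. The neuregulins NRG1 and NRG2 bind ERBB3 and ERBB4. Receptors work as pairs, in which ERBB2 has no known soluble ligand of its own, ERBB3 has little kinase activity, and signals run through RAS to the MAP kinases and through PI3 kinase. In the mammary gland, amphiregulin is known for duct growth at puberty, ERBB4 for the maturation of milk-secreting alveoli, and EGF as a growth factor of milk.

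*Egf* was 3.28 times lower in the KO libraries than in WT, while *Tgfa* was 2.63 times, *Erbb3* 1.89 times, *Btc* 1.87 times and *Erbb2* 1.51 times higher. For *Egf*, *Tgfa* and *Erbb3* no KO library overlapped a WT library. *Egfr*, *Erbb4* and *Hbegf* had intervals of the log2 fold change that included 0. The ligands and the receptors did not move as a block: of the 4 tested ligands (of 6) 2 had log2 fold changes above and 2 below 0, and those of the 4 receptors were all above 0, with medians of the log2 fold change of 0.09 and 0.43 beside 0.05 over all genes tested.

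Levels are CPM, counts scaled to a common library size after TMM scaling, which takes most genes as unchanged between libraries. Library totals were 36007737 to 42811337 counts, and the scaling matters here because milk protein genes took many of them. Together *Csn1s1*, *Csn1s2a*, *Csn1s2b*, *Csn2*, *Csn3*, *Wap* and *Lalba* took 26.3% to 34.0% of the counts in WT and 12.7% to 21.8% in KO libraries. With library size alone, the median log2 fold change of all genes moved from 0.05 to 0.42. Genotypes were compared with edgeR's quasi-likelihood test. A gene was called where its p after Benjamini-Hochberg adjustment lay below 0.01 and its log2 fold change beyond 1 in either direction, limits taken from the methods of the paper. The quasi-likelihood test called 0 of 17175 genes (0.0%), 1 gene had an adjusted p under 0.05, and 3674 genes (21.4%) had an unadjusted p under 0.05. At these limits 419 genes (2.44%) were called by the exact test of edgeR and 572 (3.33%) by the Wald test of DESeq2. Groups did not overlap for 3209 genes (18.7%). WT replicates 1, 2 and 3 ran on lanes 3, 4 and 2 and KO replicates 1 to 4 on lanes 1, 5, 4 and 4, so lane and genotype cannot be told apart outside lane 4, which holds 1 WT and 2 KO libraries. The paper describes these groups as mice, the labels do not name the mouse of each library, and p-values measure the spread between these libraries.

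The targeted gene *Tardbp* had 223, 178 and 159 CPM in WT replicates 1, 2 and 3 and 214, 176, 154 and 208 CPM in KO replicates 1 to 4. The groups overlapped, with a log2 fold change of 0.01 (SE 0.182, edgeR quasi-likelihood adjusted p = 0.982). Counts are summed over all exons and over all cells of the gland, and the deletion of exons 2 and 3 in luminal cells cannot be read from them. "KO" below is therefore the genotype in the label.

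Among the ligands, *Egf* (ENSMUSG00000028017.2, chr3:129380493-129458240, minus strand, NCBIM37) had the highest level in every library. *Egf* read 63.5, 26.8 and 35.6 CPM in WT replicates 1, 2 and 3, and 12.05, 10.4, 14.6 and 14.1 CPM in KO replicates 1 to 4. All 4 KO libraries lay close together below the lowest WT library, and WT replicate 1 stood well above the other two. WT libraries averaged 41.9 CPM ± 19.2 (SD, n = 3) and KO libraries 12.8 CPM ± 1.93 (SD, n = 4). Its log2 fold change was −1.71 (SE 0.280, 95% interval −2.35 to −1.08), with an unadjusted p of 0.000182 and an adjusted p of 0.06 in edgeR's quasi-likelihood test, the 52nd lowest p of 17175 genes. *Egf* fell by both other tests, with adjusted p = 9.84e-06 in edgeR's exact test and 1.43e-05 in DESeq2's Wald test. A 2-sided exact permutation test over the 35 ways to label the libraries gave p = 0.0286, the smallest it can give with 3 and 4 libraries. Within lane 4 the difference was −0.90 on the log2 scale (the log2 ratio of mean CPM), since WT replicate 2 had the lowest *Egf* of the WT libraries.

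Of the ligands with far fewer counts, *Tgfa* and *Btc* lay in the other direction. *Tgfa* (ENSMUSG00000029999.8, chr6:86145420-86225151, plus strand), the gene of TGF-alpha, read 0.790, 1.07 and 1.49 CPM in WT replicates 1, 2 and 3 and 4.06, 2.09, 3.46 and 2.19 CPM in KO replicates 1 to 4. Every KO library lay above every WT library, and KO replicates 1 and 3 were the highest. The log2 fold change was 1.39 (SE 0.374, 95% interval 0.55 to 2.24), with an adjusted p of 0.0963 in edgeR's quasi-likelihood test, 0.0232 in edgeR's exact test and 0.00752 in DESeq2's Wald test. At the limits used *Tgfa* rose by DESeq2 alone, and the exact permutation p was 0.0286. The difference was 1.4 within lane 4. The values rest on 21 to 169 counts per library.

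KO replicates 1 and 3 were also the libraries with the most lymphocyte RNA: 10 lymphocyte markers summed to 406 and 554 CPM there, to 65.3 and 123 CPM in KO replicates 2 and 4, and to 38.2 to 55.7 CPM in WT. All 10 markers were higher in KO at an unadjusted p under 0.05 in the quasi-likelihood test (10.7% of all genes tested). No lymphocyte marker was at 0 in any library. Without KO replicates 1 and 3, the log2 fold change of *Tgfa* was 0.93 (edgeR quasi-likelihood adjusted p = 0.404), and its unadjusted p was no longer under 0.05. Leaving out the libraries with the highest *Tgfa* lowers its fold change in any case. With fewer libraries, the lowest quasi-likelihood adjusted p of all genes was 0.187 in this setting. The part of the lymphocytes in the *Tgfa* values was not tested.

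*Btc* (ENSMUSG00000082361.2, chr5:91786287-91831939, minus strand), the gene of betacellulin, read 1.28, 3.04 and 1.78 CPM in WT replicates 1, 2 and 3. In KO replicates 1 to 4 it read 2.89, 4.07, 4.26 and 4.03 CPM. WT replicate 2 lay above KO replicate 1, so the groups overlapped, and the other KO libraries lay together at the top. The log2 fold change was 0.90 (SE 0.340, 95% interval 0.13 to 1.67, edgeR quasi-likelihood adjusted p = 0.176), the exact permutation p was 0.0571, and neither edgeR's exact test nor DESeq2 called it. Within lane 4 the difference was 0.45.

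*Hbegf* (ENSMUSG00000024486.5), the gene of heparin-binding EGF-like growth factor, read 3.23, 1.43 and 1.61 CPM in WT replicates 1, 2 and 3 and 2.12, 1.63, 0.737 and 0.587 CPM in KO replicates 1 to 4. KO replicates 3 and 4 were below every WT library and KO replicates 1 and 2 lay within the WT range. Its log2 fold change of −0.71 had a 95% interval from −1.88 to 0.46 (edgeR quasi-likelihood adjusted p = 0.471), so these 7 libraries leave room for a large fall as well as for a small rise.

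*Areg* (ENSMUSG00000029378.4, chr5:91568641-91577458, plus strand), the gene of amphiregulin, was counted 2, 4 and 61 times in WT replicates 1, 2 and 3 and 4, 6, 2 and 4 times in KO replicates 1 to 4. WT replicate 3 held 61 of the 83 *Areg* counts, and the other WT libraries lay within the KO range. When genes with few counts were kept, the log2 fold change was −2.76 with an unadjusted p of 0.0162 and an adjusted p of 0.181 in edgeR's quasi-likelihood test, a value that rests on WT replicate 3. *Ereg* (ENSMUSG00000029377.4, chr5:91503643-91522675, plus strand), the gene of epiregulin, had 4, 2 and 1 counts in WT and 4, 0, 0 and 0 counts in KO libraries. A count of 0 allows up to 3 counts, or 0.0614 to 0.0800 CPM in these KO libraries, and a difference in *Ereg* was not detectable at this depth. This limit covers counting error only.

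*Areg*, *Ereg* and *Btc* are neighbours. Together with *Epgn*, the gene of epigen and a further ligand of EGFR, and 1 gene of a small nuclear RNA they take up 375.4 kb of chromosome 5 (NCBIM37, 91456490 to 91831939). *Btc*, on the opposite strand at the far end, was the one gene of the 5 with more than 61 counts in any library. *Epgn* had 0 to 14 counts.

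**Figure D1:**
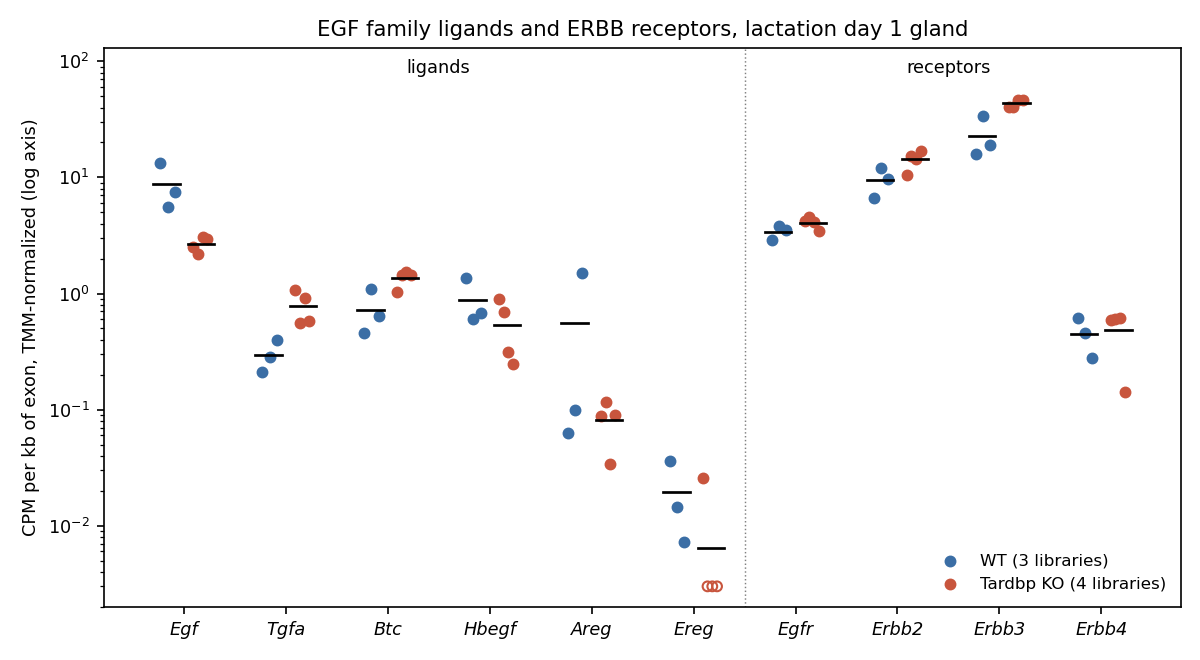
CPM per kb of exon after TMM scaling (log axis) of each of the 10 genes, with 1 point per library, a bar for the mean of each genotype and open circles near the lower edge for libraries with 0 counts. Apart from *Egf*, *Tgfa* and *Erbb3*, the WT and KO points overlap, and the single high *Areg* point is WT replicate 3.

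Of the receptor genes, *Erbb3* (ENSMUSG00000018166.8, chr10:128004579-128026708, minus strand) read 94.9, 205 and 114 CPM in WT replicates 1, 2 and 3. In KO replicates 1 to 4 it read 244, 245, 279 and 277 CPM. The KO libraries differed little among themselves and all lay above WT replicate 2, the WT library nearest to them. WT libraries averaged 138 CPM ± 58.9 (SD, n = 3) and KO libraries 261 CPM ± 19.2 (SD, n = 4). For *Erbb3* the log2 fold change was 0.92 (SE 0.259, 95% interval 0.33 to 1.51), under the limit of 1, with an adjusted p of 0.106 in edgeR's quasi-likelihood test, 0.0226 in its exact test and 0.0125 in DESeq2's Wald test. The exact permutation p was 0.0286, and the difference within lane 4 was 0.44.

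*Erbb2* (ENSMUSG00000062312.5, chr11:98273784-98299030, plus strand), the gene of the co-receptor that pairs with ERBB3, read 34.9, 62.7 and 50.6 CPM in WT replicates 1, 2 and 3 and 55.2, 80.3, 74.6 and 88.6 CPM in KO replicates 1 to 4. KO replicate 1 lay within the WT range and the other KO libraries above it. Its log2 fold change was 0.60 (SE 0.230, 95% interval 0.08 to 1.12, edgeR quasi-likelihood adjusted p = 0.183), the exact permutation p was 0.0857, and the difference within lane 4 was 0.38. Of its exon bases, 9 (0.173%) also belong to a gene on the other strand, and no other member shares exon bases with another gene.

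*Egfr* (ENSMUSG00000020122.9, chr11:16652206-16818161, plus strand) read 32.5, 43.0 and 40.2 CPM in WT replicates 1, 2 and 3 and 47.5, 51.3, 46.5 and 38.8 CPM in KO replicates 1 to 4. KO replicate 4 lay within the WT range and the other KO libraries above it. The log2 fold change of 0.26 had the narrowest interval of the 8 tested members, −0.09 to 0.60 (SE 0.153, edgeR quasi-likelihood adjusted p = 0.376), and the difference within lane 4 was −0.01. With library size alone it was 0.62, beside a median of 0.42 over all genes.

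*Erbb4* (ENSMUSG00000062209.8, chr1:68078760-69154633, minus strand) is the longest member and spans 1075.9 kb. It read 7.60, 5.69 and 3.42 CPM in WT replicates 1, 2 and 3 and 7.35, 7.39, 7.66 and 1.76 CPM in KO replicates 1 to 4. KO replicates 1, 2 and 3 were nearly equal at the top of the WT range, and KO replicate 4 had the lowest value of all, 66 counts. The log2 fold change of 0.12 had an interval of −0.98 to 1.22 (edgeR quasi-likelihood adjusted p = 0.916), and its sign turned to −0.14 without WT replicate 3 and to −0.01 without KO replicate 3.

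In the quasi-likelihood test, 5 of the 8 tested members (*Egf*, *Tgfa*, *Btc*, *Erbb2* and *Erbb3*) had an unadjusted p under 0.05, 4 of them higher in KO (10.7% of all genes tested) and 1 lower (10.7% of all genes). All 8 had adjusted p-values of 0.06 to 0.916. Leaving out WT replicate 1, WT replicate 3, KO replicate 2 or KO replicate 3 reduced the 5 to *Egf*, *Tgfa* and *Erbb3*. The groups did not overlap for 2 members higher in KO (9.07% of all genes tested) and 1 lower (9.62%). DESeq2 called 1 member higher (1.69% of all genes) and 1 lower (1.64%), and edgeR's exact test 0 higher (1.01%) and 1 lower (1.43%).

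**Figure D2:**
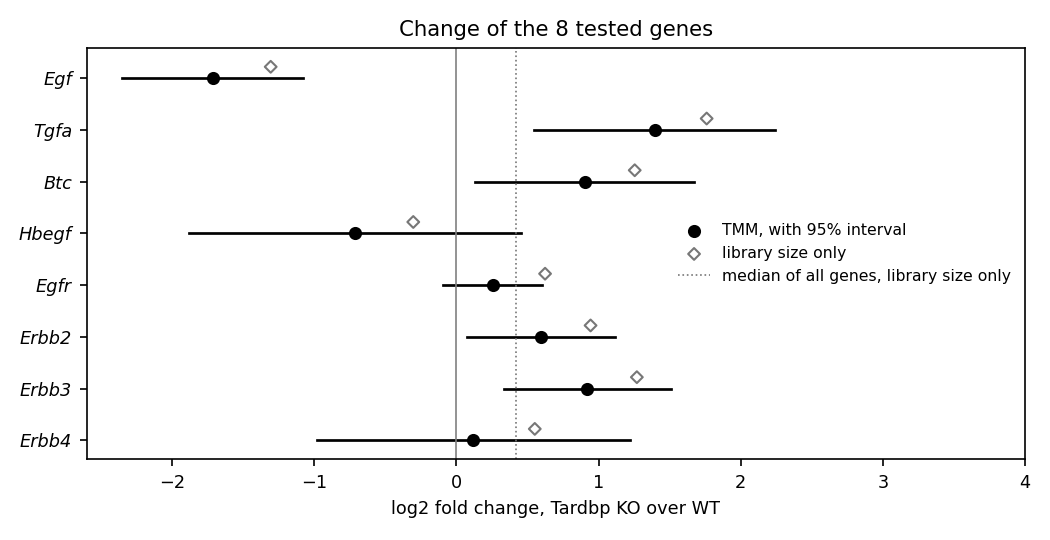
Log2 fold change of the 8 tested members, KO over WT, with its 95% interval from edgeR's quasi-likelihood fit after TMM scaling (filled points), and the same value with library size only (diamonds), for which the dotted line marks the median of all genes (0.42). *Egf* lies to the left of 0 and *Tgfa*, *Btc*, *Erbb2* and *Erbb3* to the right with their whole intervals, and all diamonds lie to the right of their points.

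To set genes beside each other, CPM was divided by exon length in kb. Ranges are over the libraries of a genotype. In WT libraries *Erbb3* led with 15.8 to 34.1 CPM per kb, followed by *Erbb2* (6.70 to 12.03), *Egf* (5.59 to 13.3) and *Egfr* (2.87 to 3.80). The ranges of *Erbb2* and *Egf* overlapped, and those of the others in this sequence did not. *Hbegf*, *Btc*, *Areg*, *Erbb4* and *Tgfa* followed with means of 0.881 to 0.297 CPM per kb, where each overlapped its neighbours, and *Ereg* was last. The place of *Areg* rests on WT replicate 3 (1.51 CPM per kb), since WT replicates 1 and 2 had 0.0627 and 0.0994. In KO libraries the order was *Erbb3* (40.6 to 46.3), *Erbb2* (10.6 to 17.0), *Egfr* (3.43 to 4.53), *Egf* (2.17 to 3.05) and *Btc* (1.04 to 1.52), with no overlap between neighbours. *Tgfa* (0.557 to 1.08) came next in KO and overlapped *Btc* above it and *Hbegf* (0.247 to 0.895) below it. Per kb, *Egf* thus lay above *Egfr* in each WT library and below it in each KO library. It was at 1.47 to 4.63 times and 0.480 to 0.858 times the level of *Egfr* per kb, respectively. In CPM not divided by length, *Egf* lay above *Egfr* in WT replicate 1 (63.5 and 32.5). It lay below *Egfr* in WT replicates 2 (26.8 and 43.0) and 3 (35.6 and 40.2). The order of these genes in WT therefore depends on the division by exon length.

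Shares within a library do not depend on the scaling between libraries. The shares of the ligands, and those of the receptors, add up to the whole. A lower share of *Egf* therefore raises the summed share of the other ligands by itself. *Egf* made up 86.2%, 72.8% and 69.7% of the summed ligand level per kb in WT replicates 1, 2 and 3 and 44.6%, 43.6%, 52.2% and 55.5% in KO replicates 1 to 4, so the groups did not overlap. *Tgfa* made up 2.93% ± 1.35 (SD, n = 3) in WT and 14.3% ± 3.94 (SD, n = 4) in KO. *Btc* made up 7.70% ± 5.79 and 25.2% ± 4.75, with no overlap for either gene, while the CPM of *Btc* itself overlapped between genotypes. *Egf* was 18.8 to 63.2 times as high as *Tgfa* per kb in WT and 2.33 to 5.06 times in KO. Against *Btc* it was 5.14 to 29.0 times as high in WT and 1.49 to 2.43 times in KO. The shares of *Hbegf* and *Areg* overlapped between genotypes, and *Areg* reached 14.2% in WT replicate 3 alone.

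Among the receptors, *Erbb3* held 62.3% ± 4.81 (SD, n = 3) of the summed level per kb in WT and 69.8% ± 2.59 (SD, n = 4) in KO, with overlapping groups. The *Egfr* share was 11.0%, 7.54% and 10.9% in WT replicates 1, 2 and 3 and 7.49%, 7.39%, 6.28% and 5.14% in KO replicates 1 to 4, so every KO library lay below WT, by little in the case of WT replicate 2. *Erbb3* was 5.36 to 8.97 times as high as *Egfr* per kb in WT and 9.00 to 13.4 times in KO. The ratios of *Erbb3* to *Erbb2* and of *Erbb2* to *Egfr* overlapped. Summed over the family, the ligand level was 11.2 CPM per kb ± 3.90 in WT and 5.44 ± 0.373 in KO, and the receptor level 36.3 ± 12.6 and 62.3 ± 4.80 (SD, n = 3 and 4). Neither sum overlapped between genotypes, and *Egf* and *Erbb3* are the largest parts of the respective sums in every library.

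**Figure D3:**
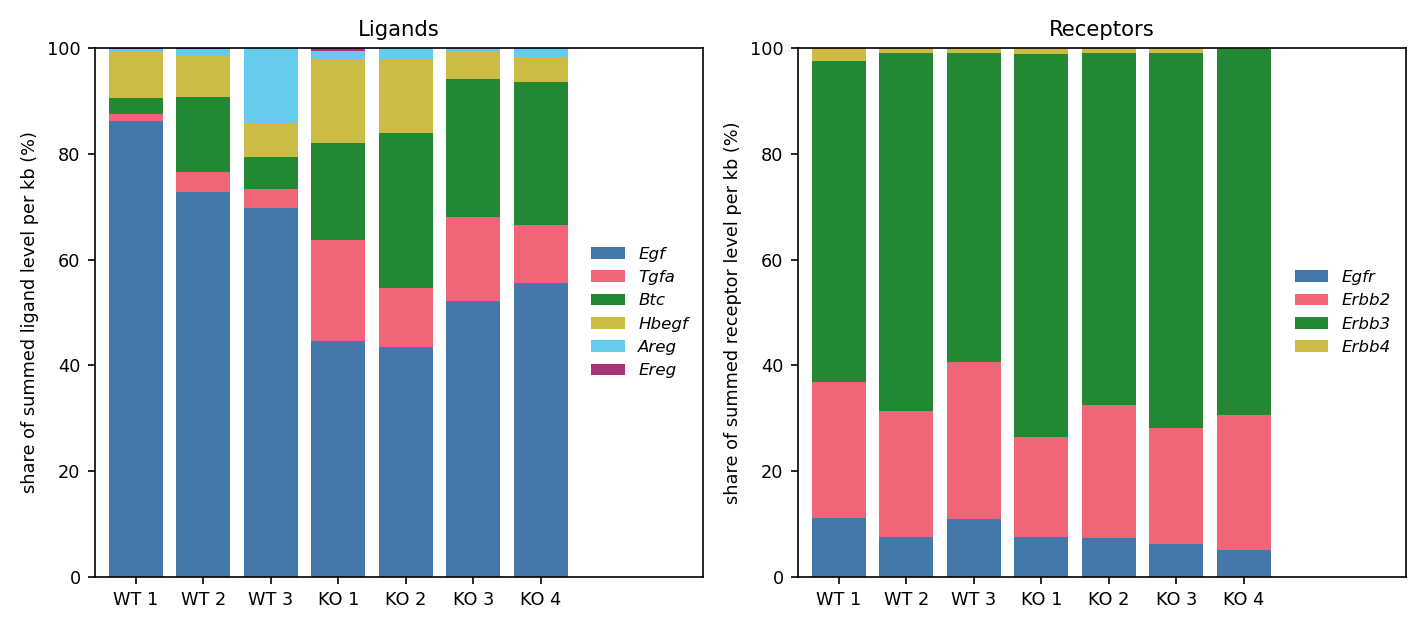
Share in percent of each ligand in the summed ligand level, and of each receptor in the summed receptor level, per kb of exon, with a stacked bar for each of the 7 libraries. The *Egf* part is 69.7% to 86.2% in WT and 43.6% to 55.5% in KO bars, while *Erbb3* is the largest part of the receptors in every bar.

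WT replicate 2, which shared lane 4 with KO replicates 3 and 4, was the WT library nearest to KO for *Egf*, *Erbb3*, *Erbb2* and *Btc*. Markers of cell types were read beside the members. In the sum of 8 luminal epithelial markers the libraries overlapped, at 2974 to 3794 CPM in WT and 3201 to 4564 CPM in KO. Of these markers 3 were higher and 1 lower at an unadjusted p under 0.05 in the quasi-likelihood test (10.7% of all genes each way). *Krt8* (log2 fold change 0.55), *Cdh1* (0.77) and *Cldn3* (1.12) were higher and *Elf5* (−0.59) lower. The median of the luminal markers was 0.40, beside 0.05 over all genes tested. The 6 milk protein genes were lower in every KO library than in every WT library, with a median log2 fold change of −1.09, and *Egf* moved in their direction. Sums of the markers of hormone-sensing luminal cells, myoepithelium, fibroblasts, adipocytes, endothelium, myeloid cells and skeletal muscle overlapped between genotypes. Of all these markers *Myh4*, of skeletal muscle, was the one at 0 in some libraries. The part of these cell types in the members' values was not tested.

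TDP-43 is known to bind UG repeats in RNA. Runs of at least 3 TG in a row (TGTGTG, on the transcript's own strand) were therefore searched in the longest coding transcript of each member in GENCODE vM1. Of 15112 tested genes with such a transcript, 71.5% held at least 1 run, and the median was 3 TG in runs. *Erbb3* held 7 runs with 24 TG in all, a number that 4.96% of those genes reached, and *Erbb2* held 8 runs with 24 TG. *Erbb4* held 6 runs (20 TG), *Egfr* 5 (15 TG), *Tgfa* 4 (12 TG), *Btc* and *Ereg* 2 each (6 TG), *Egf* and *Areg* 1 each (3 TG), and *Hbegf* had none. The receptor transcripts are 5012 to 12037 bases long and those of the ligands 1199 to 4757 bases. The run in *Erbb3* with 6 TG is the longest in the family, and 6.33% of genes hold a run of that length.

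The runs of the 3 members whose groups did not overlap, the longest or the one of the 3′ UTR where there are several, are printed with 8 transcript bases on each side and the run in capitals, together with the run in the 3′ UTR of *Btc* and the longest of 4 runs in that of *Erbb4*. The *Egf* run lies in coding sequence of exon 18 of 24 (chr3:129399818-129399823, minus strand, NCBIM37), and all others lie in the 3′ UTR, in the last exon of their transcript. They are at chr6:86222118-86222123 and chr6:86222764-86222769 (plus strand) for *Tgfa*, chr5:91788214-91788219 (minus strand) for *Btc*, chr10:128005068-128005079 (minus strand) for *Erbb3* and chr1:68079185-68079192 (minus strand) for *Erbb4*. Sequences are from the transcripts of GENCODE vM1, written 5′ to 3′ with T for U.
Egf, exon 18: tagatgagTGTGTGctggctag
Tgfa, first in the 3′ UTR: ttcaaaacTGTGTGataaagct
Tgfa, second in the 3′ UTR: aaagagccTGTGTGggcaccta
Btc, 3′ UTR: tttgtaacTGTGTGttgcttgt
Erbb3, longest run of the 3′ UTR: aaagtgtaTGTGTGTGTGTGtaaagccg
Erbb4, longest run of the 3′ UTR: atgccaatTGTGTGTGgtgaaatg
Whether the number of runs goes with the fold changes of the members was not tested. A run in a transcript is a match of letters and says nothing of binding in these cells.

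The genes around the family were grouped by function in fixed lists. Of the other EGF family ligands, 3 of 5 were tested, 2 of them lower and 0 higher at an unadjusted p under 0.05 in the quasi-likelihood test (10.7% of all genes tested in each direction). *Nrg1*, the gene of neuregulin 1, a ligand of ERBB3 and ERBB4, read 10.3, 1.07 and 10.2 CPM in WT replicates 1, 2 and 3 and 1.57, 1.79, 1.17 and 0.907 CPM in KO replicates 1 to 4. WT replicate 2 lay among the KO libraries and the other two WT libraries far above them. The log2 fold change was −2.40 (SE 0.644), with an adjusted p of 0.0963 in edgeR's quasi-likelihood test, and *Nrg1* fell by DESeq2 (adjusted p = 0.00308) and by edgeR's exact test (adjusted p = 0.00905). *Nrg2*, a further neuregulin gene, was 6.88 CPM ± 1.05 in WT (SD, n = 3) and 4.64 CPM ± 0.493 in KO (SD, n = 4), without overlap, a log2 fold change of −0.57. *Epgn* was not tested, and *Nrg3* had 0 counts in all 7 libraries.

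Of 8 genes for the shedding of ligands, 1 was higher and 0 lower at an unadjusted p under 0.05, with a median log2 fold change of 0.12, beside 10.7% of all genes in each direction. That gene was *Adam17*, the main protease for several EGFR ligands, with WT libraries at 43.4 CPM ± 1.93 (SD, n = 3) and KO libraries at 53.9 CPM ± 1.33 (SD, n = 4), a log2 fold change of 0.32.

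Of 21 adaptor and kinase genes in the file, 5 were higher and 1 lower at that threshold (10.7% of all genes each way), with a median of 0.11. The adaptors *Gab2* (log2 fold change 0.77) and *Gab1* (0.69), which link receptors to PI3 kinase, and the GTPase gene *Nras* (0.55) lay above WT in every KO library. *Map2k1*, the gene of the MAP kinase kinase MEK1, had 81.1 to 83.2 CPM in the WT libraries and 53.4 to 62.7 CPM in the KO libraries. Its log2 fold change was −0.50 (SE 0.119, edgeR quasi-likelihood adjusted p = 0.0851). *Map2k1* had an adjusted p of 0.0377 in edgeR's exact test and 0.00319 in DESeq2's Wald test. *Gab2* had 0.00598 in the exact test and 0.00193 in the Wald test. Neither test called a gene of this list at the limits used, which also ask for a log2 fold change beyond 1.

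Of 18 feedback inhibitors, 2 were higher and 2 lower, near the share of all genes (10.7% each way), with a median of 0.01. *Errfi1*, whose protein binds and blocks the kinase of EGFR, read 55.9, 86.1 and 40.8 CPM in WT replicates 1, 2 and 3 and 130, 140, 129 and 90.5 CPM in KO replicates 1 to 4. KO replicate 4 lay just above WT replicate 2, and the log2 fold change was 1.01 (edgeR quasi-likelihood adjusted p = 0.095). The adjusted p of *Errfi1* was 0.0131 in edgeR's exact test and 0.00854 in DESeq2's Wald test. Neither test called it at the limits on both adjusted p and fold change. *Cblb*, a ubiquitin ligase for EGFR, had a log2 fold change of 0.50, and *Rnf41*, a ubiquitin ligase for ERBB3, one of −0.42. *Dusp6*, a phosphatase of the MAP kinase ERK, had one of −0.34. With library size only it was 0.05, beside a median of 0.42 over all genes.

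The early genes that growth factors induce had the largest median of these lists, 1.00 over 13 tested genes, with 6 higher and 3 lower at an unadjusted p under 0.05 (10.7% of all genes each way). The transcription factor gene *Egr3* read 1.5, 1.4 and 1.5 CPM in WT replicates 1, 2 and 3 and 7.78, 5.89, 6.41 and 3.76 CPM in KO replicates 1 to 4. All KO libraries lay above the 3 nearly equal WT libraries, with a log2 fold change of 2.02 (SE 0.301, edgeR quasi-likelihood adjusted p = 0.0537). *Junb* (1.57) and *Fos* (1.39), subunits of the factor AP-1, also lay above WT in every KO library. *Egr3*, *Junb* and *Fos* rose by edgeR's exact test and by DESeq2.

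The 3 genes lower in this list were *Etv4*, *Etv5* and *Ccnd1*. The ETS factor gene *Etv5* read 80.8, 27.6 and 87.3 CPM in WT replicates 1, 2 and 3 and 25.8, 27.6, 15.3 and 18.4 CPM in KO replicates 1 to 4, so that WT replicate 2 lay level with the highest KO library. Its log2 fold change was −1.58, and *Etv5* fell by DESeq2 (adjusted p = 0.00215) and by edgeR's exact test (adjusted p = 0.00262). *Etv4*, of the same ETS subfamily, fell by DESeq2 (log2 fold change −1.62, adjusted p = 0.00663) and had no overlap. *Ccnd1*, the gene of cyclin D1, had a log2 fold change of −1.47 and was not called.

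**Figure D4:**
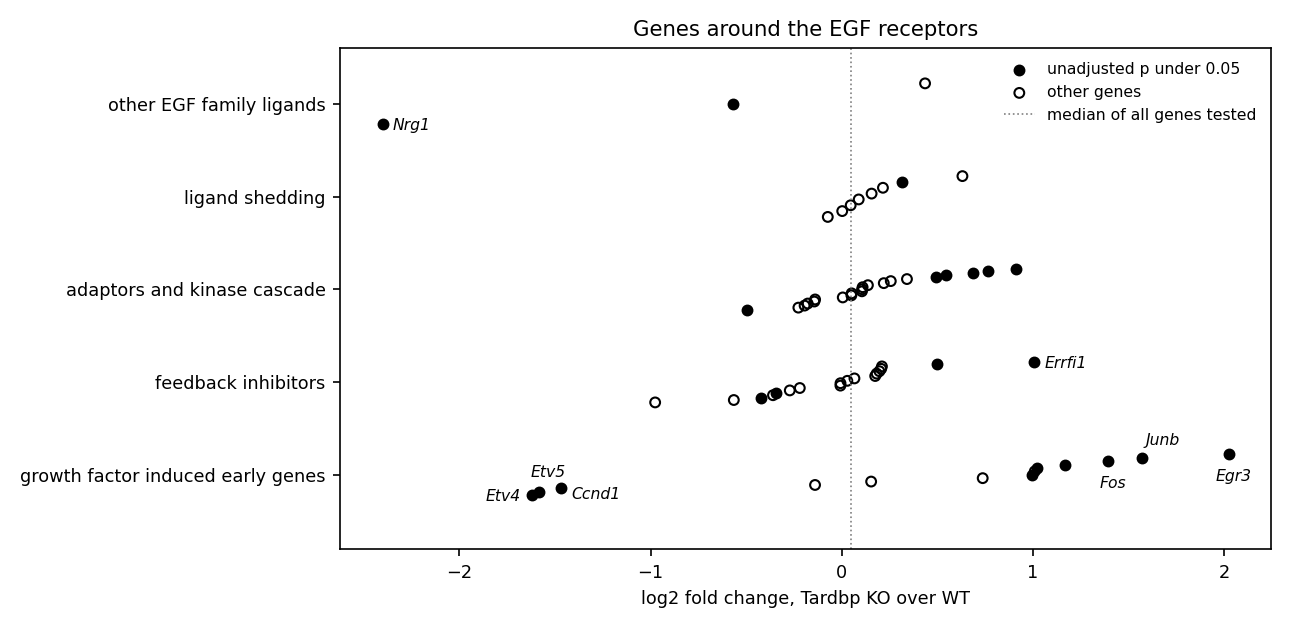
Log2 fold change, KO over WT, of the tested genes of 5 lists around the receptors, 1 point per gene, filled where the unadjusted p of edgeR's quasi-likelihood test is under 0.05. The dotted line is the median of all genes tested (0.05), and the early genes lie on both sides of it, from *Etv4* at −1.62 to *Egr3* at 2.02.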

How the data were processed

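Mammary gland RNA of 7 libraries was sequenced by the authors from TruSeq libraries as paired-end reads. They mapped reads to mouse NCBIM37 (mm9) with STAR (2.5.2a in the submitters' processing notes) and counted them on GENCODE vM1 exons with featureCounts 1.4.6-p5, per the file headers without options for strand, pairs or multimapping reads, so mates count separately. The deposited values are raw counts. The header names 1 more library without a column, not analysed here.

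Libraries were grouped by the genotype label. Mitochondrial (37) and ribosomal (580) genes were removed. edgeR 4.0.16 (R 4.3.3) was used with TMM scaling and the quasi-likelihood test over 17175 genes with Benjamini-Hochberg adjustment. SEs were derived from the F statistic. DESeq2 1.42.0, edgeR's exact test, other scalings and filters, a replicate block, lane 4 and left-out libraries were alternatives. Permutation tests used log2(CPM + 1). The test was checked on simulated data. Tables were made with Python 3.11.15 and pandas 2.3.3.

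All members were named, with up to 3 genes per direction and list of lowest p under 0.05, and *Tardbp*. Members and lists were chosen with earlier results of these data known.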

Additional observations from a re-analysis of the deposited data

Results flagged for a closer look

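In groups of 4 KO libraries, a library was picked out where its gap to the next one, divided by the range of the group, passed Dixon's 95% critical value. Chance flags about 1 in 20 groups, and 30 groups were looked at. For *Btc* the ratio was 0.831, with KO replicate 1 at 2.89 CPM below the other three. For *Erbb4* it was 0.948, with KO replicate 4 at 1.76 CPM below the other three, and the share of *Erbb4* among the receptors gave 0.865 for the same library. For *Ereg* the ratio was 1.0, both for CPM and for its share of the ligands, since KO replicate 1 held 4 counts and the other KO libraries 0. Among the marker sums, myoepithelium gave 0.901 (KO replicate 1 high, 3165 CPM) and adipocytes gave 0.937 (KO replicate 2 high, 3537 CPM). The cause of these values was not tested.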

How the results depend on the processing

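The count of called genes was 0 in the quasi-likelihood test and in all its alternatives but 2: 1 gene was called without a filter on low counts, and 1 at an adjusted p under 0.05 with no limit on the fold change. edgeR's exact test called 419 and DESeq2 572. The count of members with an unadjusted p under 0.05 was 5, and with one library left out 3 to 5. It was 6 with library size only (*Egfr* added) and without a filter (*Areg* added). Of the 17 settings with a test (lane 4 has none), *Egf*, *Erbb3* and *Hbegf* kept direction and side of the unadjusted threshold in 17, *Tgfa* and *Egfr* in 16, *Erbb4* in 14, *Btc* in 13 and *Erbb2* in 12. With one library left out the log2 fold change was −1.95 to −1.29 for *Egf*, 1.2 to 1.65 for *Tgfa*, −0.14 to 0.41 for *Erbb4* and 0.71 to 1.32 for *Erbb3*. Values that turned were *Egfr* in lane 4 (−0.013) and *Erbb4* without WT replicate 3 (−0.14), without KO replicate 3 (−0.01), without KO replicates 1 and 3 (−0.27) and in lane 4 (−0.27). The cause was not tested.

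Equal replicate numbers of the genotypes were not taken as pairs, since the labels name no pairing. Deviations of same-numbered libraries correlated at 0.35, 0.09 and −0.06, and those of the other combinations at −0.39 to 0.25. These few values cannot settle whether the libraries are paired. With the replicate number as a block, 0 genes were called and 5 members had an unadjusted p under 0.05. The block raised the number of genes with an adjusted p under 0.05 from 1 to 649. *Egf* was then at an adjusted p of 0.0347 in edgeR's quasi-likelihood test.

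Depth limits *Areg* and *Ereg*, and 3 WT against 4 KO libraries of mostly different lanes limit the rest.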
